A study of Mus musculus with 43 samples.

Results

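The nuclear genes of oxidative phosphorylation were followed through all RNA and chromatin data of the series. Members were the protein-coding genes of GENCODE vM21 on nuclear chromosomes whose symbols begin with Nduf (followed by a, b, c, s or v), Uqcr, Cox4 to Cox8 or Atp5, together with Sdha, Sdhb, Sdhc and Sdhd. This gave 94 gene identifiers among 21938 nuclear protein-coding genes. By the start of the symbol alone, 38 were assigned to complex I, 8 to Ndufaf assembly factors of complex I and 4 to complex II. A further 8 were assigned to complex III, 18 to complex IV and 18 to complex V. The complex in which each protein sits was not checked. A pair of identifiers carries the symbol Atp5o, and one of them is listed at 0 in every library. The 13 protein genes of mitochondrial DNA (chrM) served as the comparison set.

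The respiratory chain passes electrons from NADH (complex I) and succinate (complex II) through complex III to oxygen at complex IV, and the proton gradient so made drives ATP synthase, complex V. Complexes I, III, IV and V are built from subunits of both genomes, whereas complex II is wholly nuclear. In the testis, several subunits of complex IV exist as isoforms of which one is used mainly in germ cells.

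RNA was measured at P7, and the methods give a C57BL/6J background for all mice. The floxed Prmt1 allele, homozygous in dKO, carries lox sites around exons 4 and 5. The methods do not state the Prmt1 alleles of the bulk WT mice. Prmt1 encodes the main enzyme for asymmetric arginine dimethylation. The dKO was made with Ddx4-CreERT2, which is active in germ cells after tamoxifen. The protocol gives tamoxifen on 3 days for WT and knockout samples alike, but it does not state separately whether the C57BL/6J mice of the WT CUT&Tag lists received it. Bulk RNA-seq has 3 WT and 3 dKO libraries, and Smart-seq2 has 2 WT and 2 dKO libraries of spermatogonia sorted by their EGFP tag. The bulk libraries are labelled spermatogonia, but the protocol describes total testis RNA, and the methods describe the Smart-seq2 controls, labelled WT, as heterozygous for the lox allele. CUT&Tag, which maps a histone mark by tagging nearby DNA, gave 33 peak lists from filtered tubule suspensions. In WT (C57BL/6J) mice, H4R3me2a has 3 lists at each age, H4R3me2s has 2 at P7 and 3 at P14, and H3R2me2a, H3R8me2a, H4R3me1, H3K27ac and H3K4me3 have 2 at each age. A further 2 H4R3me2s lists come from dKO at P7. Peak names in the 3 H4R3me2s lists labelled P14 begin with SD17R, unlike those of the other marks at that age. The P14 samples are titled spermatogonia and carry the cell type label spermatocyte. The labels do not say that replicates came from separate animals, so p-values measure the spread between these samples, which may be technical.

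Library totals were 12396345 to 16598249 expected counts in bulk RNA-seq and 15610392 to 18547103 in Smart-seq2. In TPM, a level scaled by transcript length and library size, Prmt1 as a whole gene stood at 604 to 652 TPM in WT and 402 to 433 TPM in dKO in bulk RNA-seq and at 350 and 239 TPM in WT and 179 and 151 TPM in dKO in Smart-seq2. In bulk RNA-seq the summed TPM of 14 Sertoli cell markers was 9794 to 10425 in WT and 6688 to 7403 in dKO. The 8 Leydig cell markers summed to 805 to 919 TPM in WT and 334 to 366 TPM in dKO, and the 7 peritubular myoid markers to 978 to 1041 and 349 to 561 TPM. At an edgeR FDR below 0.05, 4 Leydig markers were lower (8.51% of all genes) and 1 higher (10.6%). Insl3, singled out after its values were seen, went from 277 to 339 TPM in WT to 9.82 to 10.8 TPM in dKO. Hsd17b3 overlapped, at 118 to 143 and 115 to 131 TPM. The 10 macrophage markers went the other way in bulk RNA-seq, at 135 to 158 TPM in WT and 161 to 195 TPM in dKO. So did the 7 endothelial markers, at 105.4 to 108.5 TPM in WT and 109.6 to 136.3 TPM in dKO. In Smart-seq2 the macrophage markers summed to at most 5.02 TPM in WT and to 62.1 to 71.4 TPM in dKO. There the Sertoli markers summed to 438 to 463 TPM in WT and 652 to 876 TPM in dKO, and the peritubular markers to 18.95 to 21.97 and 6.08 to 7.76 TPM. The 14 germ cell markers summed to 3277 to 3280 TPM in WT and 2762 to 2799 TPM in dKO in Smart-seq2, and to 1799 to 2083 and 1723 to 1761 TPM in bulk RNA-seq. The Smart-seq2 order rested on Tex101, singled out after its values were seen, at 1576 and 1591 TPM in WT and 651 and 628 TPM in dKO. The 13 other germ cell markers summed to 1704 and 1686 TPM in WT and 2149 and 2135 TPM in dKO, the opposite order. Smart-seq2 detected 17069 and 15572 genes in WT and 21350 and 20159 in dKO. The part of these shifts in the results that follow was not tested, and in bulk RNA fewer cells of a type cannot be told apart from less RNA per cell.

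Promoter sequences are shown for members on which the results turn. They span 250 bases before to 50 bases after the transcription start in RefSeq (GRCm38.p6), read 5′ to 3′ on the gene's strand. Capitals mark GCATGCGC (a stretch of the NRF1 motif), CCGGAAG (the ETS core bound by GABPA) or AAGATGGC (YY1), searched on both strands. NRF1, GABPA and YY1 are regulators known for respiratory chain genes. Uqcrh (chr4:116075021-116075320, minus strand) was the only member with all 5 arginine marks at P7 in the peak lists as deposited. At q of at most 0.01 it did not keep all 5. Atp5j (chr16:84835576-84835875, minus strand) lies head to head with Gabpa, and this promoter, at the annotated gene start, holds none of the letters. A second RefSeq promoter of Atp5j, within the gene, holds ETS and YY1 letters and is not shown. Cox7a2l (chr17:83514284-83514583, minus strand, 2997 bp inside the outermost annotated start) and Ndufa6 (chr15:82354242-82354541, minus strand) passed the test in bulk RNA-seq. Ndufv2 (chr17:66101510-66101809, minus strand) was lower in dKO in Smart-seq2 in both libraries. Sdhb (chr4:140961021-140961320, plus strand) holds both NRF1 and ETS letters, and Cox7b2 (chr5:71548156-71548455, minus strand), a testis isoform, holds none of them and had no arginine mark at either age.
Uqcrh: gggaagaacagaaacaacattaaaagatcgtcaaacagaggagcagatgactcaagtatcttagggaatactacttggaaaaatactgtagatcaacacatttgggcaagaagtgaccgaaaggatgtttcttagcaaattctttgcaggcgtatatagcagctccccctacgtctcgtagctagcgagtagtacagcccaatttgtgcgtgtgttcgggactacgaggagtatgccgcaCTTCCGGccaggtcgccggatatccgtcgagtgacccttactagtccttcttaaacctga
Atp5j: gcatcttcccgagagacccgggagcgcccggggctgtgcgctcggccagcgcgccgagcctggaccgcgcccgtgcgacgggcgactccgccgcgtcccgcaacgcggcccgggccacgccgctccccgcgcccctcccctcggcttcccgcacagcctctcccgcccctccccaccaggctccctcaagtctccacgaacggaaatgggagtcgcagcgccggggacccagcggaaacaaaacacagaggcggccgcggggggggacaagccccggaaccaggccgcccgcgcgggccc
Cox7a2l: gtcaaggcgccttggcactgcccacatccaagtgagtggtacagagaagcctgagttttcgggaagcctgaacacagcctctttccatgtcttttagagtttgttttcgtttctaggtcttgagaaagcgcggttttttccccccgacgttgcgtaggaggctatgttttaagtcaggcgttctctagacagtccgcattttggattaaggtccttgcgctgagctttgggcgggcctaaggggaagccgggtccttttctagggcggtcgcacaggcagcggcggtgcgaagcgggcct
Ndufa6: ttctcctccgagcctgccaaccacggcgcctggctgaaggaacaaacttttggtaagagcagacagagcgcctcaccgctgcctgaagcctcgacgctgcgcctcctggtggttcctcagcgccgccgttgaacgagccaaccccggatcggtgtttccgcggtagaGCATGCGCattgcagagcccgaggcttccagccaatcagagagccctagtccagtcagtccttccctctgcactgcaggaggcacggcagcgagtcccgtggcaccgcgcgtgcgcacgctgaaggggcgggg
Ndufv2: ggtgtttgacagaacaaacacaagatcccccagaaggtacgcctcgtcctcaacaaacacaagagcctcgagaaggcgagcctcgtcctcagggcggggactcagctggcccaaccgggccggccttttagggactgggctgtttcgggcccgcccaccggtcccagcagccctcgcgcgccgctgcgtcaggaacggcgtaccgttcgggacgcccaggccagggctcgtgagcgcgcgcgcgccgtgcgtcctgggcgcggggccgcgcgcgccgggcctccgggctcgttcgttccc
Sdhb: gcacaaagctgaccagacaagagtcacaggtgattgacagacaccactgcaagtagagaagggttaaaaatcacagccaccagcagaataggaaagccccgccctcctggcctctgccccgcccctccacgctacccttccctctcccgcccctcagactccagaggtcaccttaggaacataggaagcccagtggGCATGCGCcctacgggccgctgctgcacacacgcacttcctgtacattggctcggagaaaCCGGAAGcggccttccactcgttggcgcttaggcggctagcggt
Cox7b2: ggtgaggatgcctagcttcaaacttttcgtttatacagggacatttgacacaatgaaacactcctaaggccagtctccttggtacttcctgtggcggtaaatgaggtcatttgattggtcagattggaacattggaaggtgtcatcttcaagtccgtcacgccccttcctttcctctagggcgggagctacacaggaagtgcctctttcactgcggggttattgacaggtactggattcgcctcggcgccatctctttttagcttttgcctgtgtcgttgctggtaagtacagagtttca

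The reference table held 81 promoters of 76 member symbols among 32851 promoters in all, and 17 members had no entry. Median GC content was 58.3% in member promoters and 52.7% in all promoters. The observed to expected CpG ratio had a median of 0.829 in members and 0.384 in all. The NRF1 stretch was found in 12 member promoters (14.8%, against 2.71% of all), and the full NRF1 motif, which contains it, in 7 (8.64%, against 0.971%). The ETS core was found in 18 member promoters (22.2%, against 8.86%) and the YY1 letters in 11 (13.6%, against 2.75%). At least one of the NRF1 stretch, ETS and YY1 letters was present in 34 member promoters (42.0%, against 13.3%). Head-to-head neighbours were also frequent. A protein-coding gene on the other strand started within 1000 bp of the start of 34 members (36.2%, against 2410 of all 21938 nuclear protein-coding genes and 15.8% of those expressed). Ndufs1 and Eef1b2 start 3 bp apart, Sdha and Ccdc127 29 bp apart, and Atp5j and Gabpa 93 bp apart.

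Levels in WT libraries were described first. The members summed to 21837 to 24137 TPM in bulk WT and to 48966 and 52902 TPM in Smart-seq2 WT, whereas the chrM protein genes summed to 64361 to 75560 TPM in bulk WT and to 29591 and 24515 TPM in Smart-seq2 WT. Of the 13 chrM genes, 11 lay lower in both Smart-seq2 WT libraries than in all 3 bulk ones. The exceptions were mt-Atp6, higher in both, and mt-Atp8, which overlapped. In total, 73 members had both Smart-seq2 WT libraries above all 3 bulk WT libraries (26.5% of expressed genes), and 14 had both below (48.3%). Of other expressed genes within the middle range of member lengths, 40.7% lay above and 34.9% below. Both assays also differ in library protocol, so cells and protocol cannot be told apart. On the log2(TPM + 1) scale, the median difference of Smart-seq2 minus bulk was 0.93 for the 92 members expressed at 1 TPM or more and −0.40 for 14260 expressed nuclear protein-coding genes. Members are short, with a median length of 706 bases against 2499. The difference fell weakly with length across genes (Spearman −0.185 over members and −0.177 over all, genes not being independent replicates), and 1206 other genes within the middle range of member lengths had a median of 0.38.

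**Figure D1:**
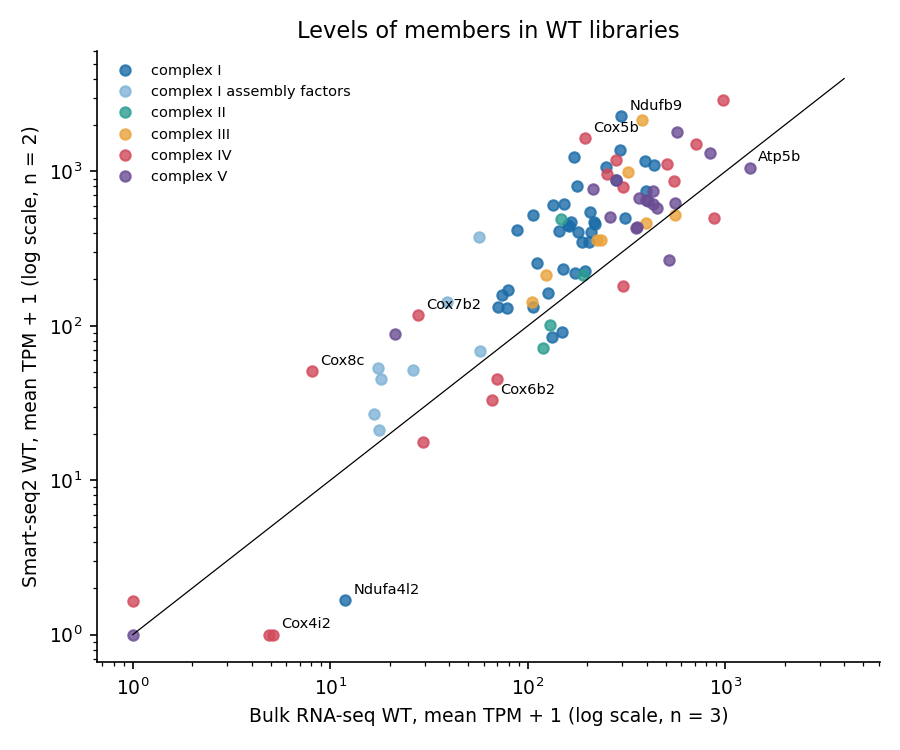
Mean TPM + 1 of each member in WT bulk RNA-seq (x axis, n = 3) and WT Smart-seq2 (y axis, n = 2), both on log scales, coloured by complex, with the line of equality. Cox5b, at 194 TPM in bulk and 1650 TPM in Smart-seq2, lies far above the line, and Ndufa4l2, at 10.9 and 0.680 TPM, lies far below it.

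Within complexes, the highest bulk WT levels were those of Atp5b, the catalytic beta subunit of ATP synthase, at 1326 TPM, Cox4i1 at 978 TPM, Uqcrh at 558 TPM, Ndufa3 at 434 TPM, Sdha at 188 TPM and, among assembly factors, Ndufaf2 at 56.2 TPM. The lowest were Cox8b at 0, Ndufa4l2 at 10.9 TPM, Ndufaf5 at 15.7 TPM, Uqcrc2 at 104 TPM and Sdhc at 118 TPM, besides the Atp5o identifier listed at 0. The spread was narrow in complex II and wide in complexes I, IV and V.

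Isoforms of complex IV were compared by source. Cox4i1 was at 2775 and 2991 TPM in Smart-seq2 WT, while Cox4i2 was listed at 0 in both. In bulk WT, Cox4i2 was at 2.91 to 6.02 TPM. Cox7b2, the testis form beside Cox7b, was at 172 and 60.4 TPM in Smart-seq2 WT and 25.04 to 29.7 TPM in bulk WT. Cox8c, the testis form beside Cox8a, was at 35.6 and 64.4 TPM in Smart-seq2 WT and 4.75 to 8.38 TPM in bulk WT. Both therefore stood above the whole-testis level in each sorted library, as did 73 members in all. Cox8a also did, at 879 and 844 TPM against 520 to 564 TPM, and so did Cox6b1, at 707 and 869 TPM against 273 to 337 TPM. Cox7b lay below, at 36.9 and 51.7 TPM against 63.4 to 73.2 TPM. Cox6b2, a testis form beside Cox6b1, did not follow them, at 49.9 and 14.1 TPM in Smart-seq2 WT against 57.6 to 74.2 TPM in bulk WT. The muscle and heart form Cox6a2 was listed at 0 in both Smart-seq2 WT libraries and lay between 3.75 and 4.02 TPM in bulk WT.

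The first genotype comparison asked whether the nuclear members as a whole moved with Prmt1 loss. In bulk RNA-seq they took 0.794% ± 0.0498 (SD, n = 3) of counts outside chrM in WT and 0.898% ± 0.162 (n = 3) in dKO, and the ranges overlapped (exact two-sided permutation test, p = 0.5). In Smart-seq2 they took 2.18% ± 0.152 (n = 2) in WT and 2.03% ± 0.178 (n = 2) in dKO, again overlapping (exact permutation p = 0.667). The smallest p these designs allow is 0.1 and 0.333. The chrM protein genes took 2.81% ± 0.193 of all bulk counts in WT and 2.86% ± 0.454 in dKO (n = 3 each, exact permutation p = 0.9). In Smart-seq2 they took 1.61% ± 0.0579 in WT and 1.87% ± 0.0540 in dKO without overlap (n = 2 each, exact permutation p = 0.333, the smallest possible). The number of genes detected, higher in both dKO libraries, moved with this difference, and its part was not tested. The log2 ratio of nuclear to chrM counts was 0.40 ± 0.15 in Smart-seq2 WT and 0.071 ± 0.17 in dKO, without overlap, and −1.86 ± 0.16 and −1.72 ± 0.47 in bulk, with overlap. Bulk dKO replicate 2 stood apart, with the highest member share and the lowest chrM share of the 6 bulk libraries, and without it the bulk ratio differed by −0.13 in place of 0.14.

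**Figure D2:**
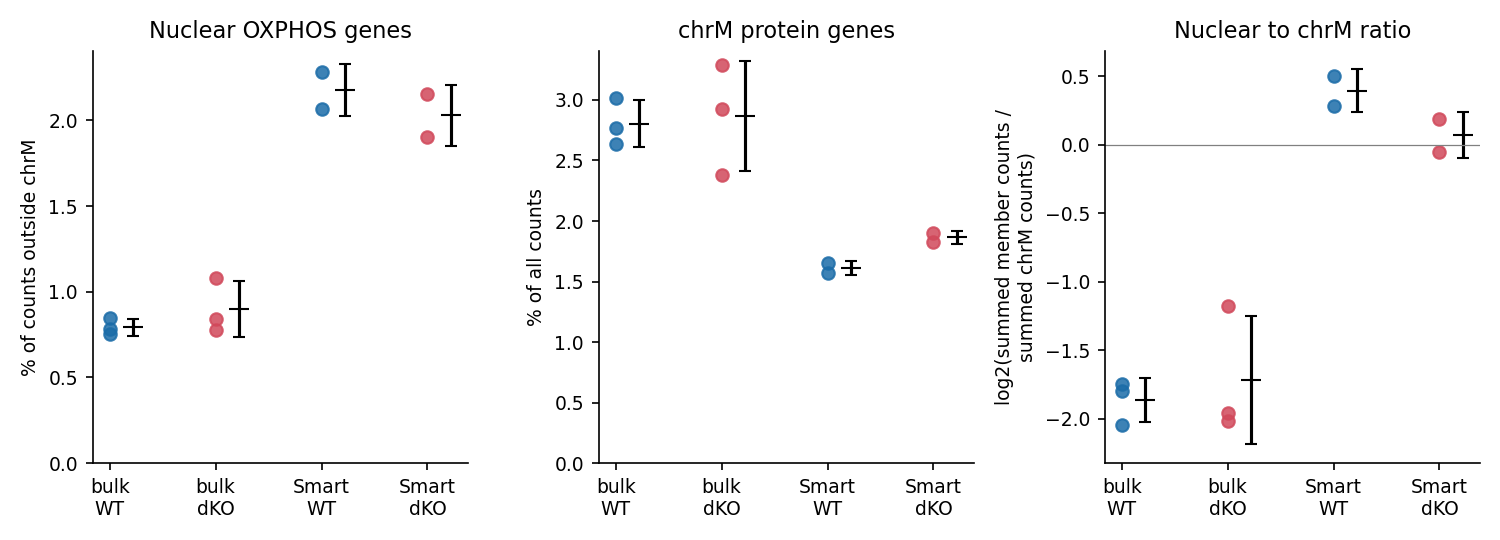
Summed counts per library for nuclear members (% of counts outside chrM), chrM protein genes (% of all counts) and their log2 ratio, with points for libraries and black marks for mean ± SD. WT and dKO overlap in bulk RNA-seq in all 3 panels, and in Smart-seq2 only in the left panel.

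Gene by gene, few members moved in bulk RNA-seq. Of 92 members tested with edgeR, 0 passed an FDR below 0.05 with a 2-fold change, a rule that called 7.1% of 16554 genes, and at an unadjusted p below 0.05 there were 8 higher (18.2% of all genes) and 1 lower (15.7%). At an FDR below 0.05 alone, 2 members were higher in dKO (10.6% of all genes were) and 0 lower (8.51% of all genes were). The median log2 fold change was 0.14 over members and 0.023 over all genes. Without dKO replicate 2 the counts were 3 higher (16.4% of all genes) and 6 lower (15.2%), and the median was −0.066. Without dKO replicate 1 they were 8 higher (9.47% of all genes) and 0 lower (7.46%), with a median of 0.24, and 1 member was higher without WT replicate 1 or 2 (5.02% and 4.97% of all genes). Every dKO library lay above every WT library for 9 members (20.9% of all genes) and below for 2 (19.9%).

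Cox7a2l encodes a factor that helps complexes III and IV join into supercomplexes. The gene lies at chr17:83501918-83517330 on the minus strand (GENCODE vM21). Its TMM-normalised CPM (counts scaled to library size) were 147, 154 and 176 in WT and 222, 297 and 278 in dKO, so the groups did not overlap. It rose by 0.74 ± 0.13 (SE) on the log2 scale (edgeR FDR = 0.00664). Ndufa6, an accessory subunit of complex I (chr15:82350140-82354322, minus strand), was at 40.5, 37.0 and 45.1 CPM in WT and 53.7, 74.2 and 65.7 CPM in dKO, also without overlap. It rose by 0.66 ± 0.14 (edgeR FDR = 0.0139), a call that was lost without WT replicate 1 (edgeR FDR = 0.0687) or WT replicate 2 (edgeR FDR = 0.0757). Sdha, the flavoprotein of complex II, was at 278, 268 and 282 CPM in WT and 235, 233 and 227 CPM in dKO. All dKO libraries were lower, with a log2 difference of −0.25 ± 0.092 that did not pass (edgeR FDR = 0.0882). Uqcrh was at 97.7, 97.1 and 105 CPM in WT and 110, 169 and 133 CPM in dKO. Its groups did not overlap, and the log2 difference of 0.46 did not pass (edgeR FDR = 0.0673). The 9 core subunits fixed for description had log2 fold changes between −0.25 and 0.23, 3 positive and 6 negative, and none passed (smallest edgeR FDR = 0.0882).

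**Figure D3:**
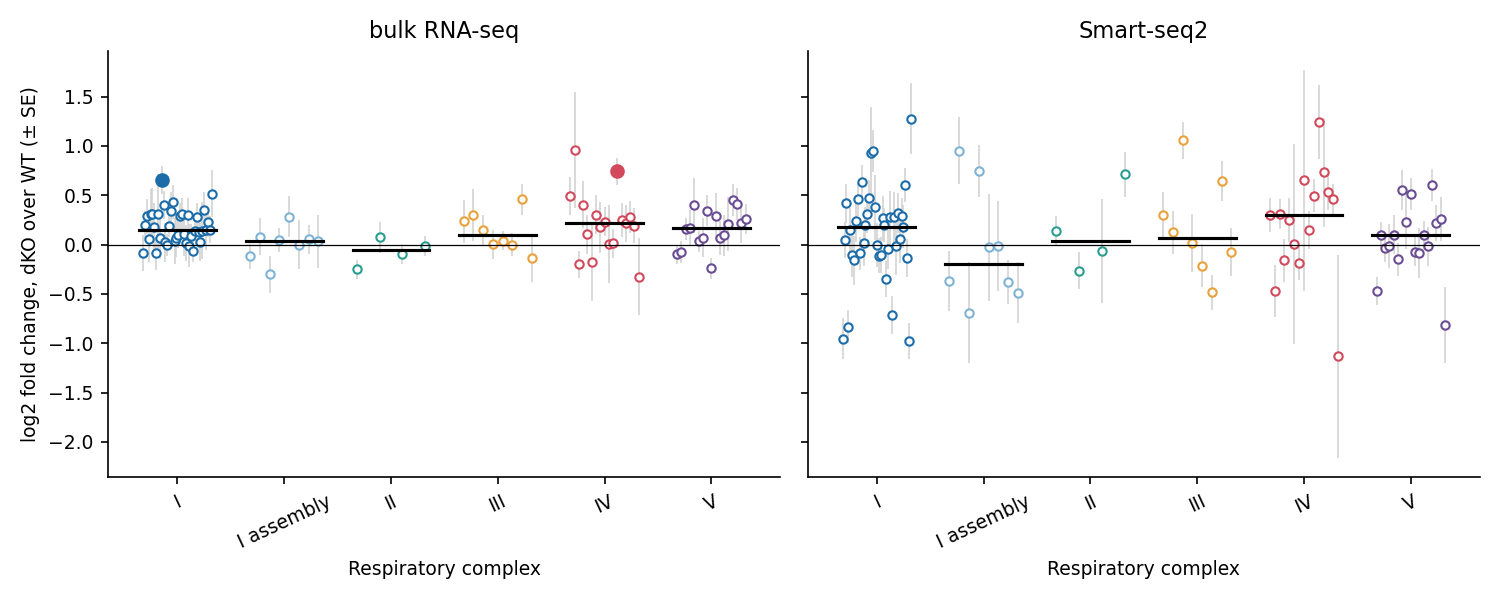
log2 fold change of dKO over WT for each member tested, with SE, by complex in bulk RNA-seq and Smart-seq2; black lines are medians and filled points have an edgeR FDR below 0.05. Filled points are Ndufa6 in complex I and Cox7a2l in complex IV, both in bulk RNA-seq.

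Among chrM protein genes in bulk RNA-seq, mt-Nd5 fell. It was at 1771, 1993 and 1567 CPM in WT and 1475, 1101 and 1102 CPM in dKO, and it dropped by 0.54 ± 0.15 on the log2 scale (edgeR FDR = 0.0365). It was the only one of 13 to pass, and it did not pass without any one of the WT libraries or without dKO replicate 3. Other chrM genes passed only in other settings: without dKO replicate 2, mt-Atp6 and mt-Atp8 were higher and mt-Nd6 lower, without dKO replicate 3, mt-Co3 was lower, and with no filter on low counts, mt-Atp6 was higher. mt-Atp8 with mt-Atp6, and mt-Nd4l with mt-Nd4, overlap on chrM and share reads, so their own levels are uncertain. In Smart-seq2, edgeR called 0 of 13 chrM genes. At an unadjusted p below 0.05, 7 were higher there (16.4% of all genes) and 0 lower (7.35%). Their median log2 fold change was 0.52, against 0.15 over all genes. DESeq2 called 8 higher with the same filter (18.8% of all genes), 6 higher without it (8.34%) and 0 lower in both.

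Smart-seq2 gave larger differences with less certainty. The biological coefficient of variation was 0.767, against 0.155 in bulk. Of 89 members tested, 0 passed an FDR below 0.05 with edgeR, as was true of all genes (0% of 16443). At an unadjusted p below 0.05, 17 members were higher (16.4% of all genes) and 6 lower (7.35%). The median log2 fold change was 0.10 over members and 0.15 over all genes. Without overlap between genotypes, 29 members stood higher in dKO (36.3% of all genes) and 12 lower (20.3%). DESeq2, the study's tool, with the same filter called 18 members higher (18.8% of all genes) and 8 lower (10.7%) at an adjusted p below 0.05. DESeq2 without that filter, a setting added after the filtered result had been seen, called 7 higher (8.34%) and 5 lower (5.69%). With limma-voom, a further tool, 0 members were called, against 9.60% of all genes higher and 1.06% lower. The calls in this assay therefore depend on the tool and on the filter, and they are given here as values.

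The 5 members with the smallest edgeR FDR, each 0.0774, were chosen after their values were seen. Uqcrb, a subunit of complex III that binds ubiquinone, was at 84.1 and 101 CPM in WT and 206 and 179 CPM in dKO, a log2 difference of 1.06 ± 0.19. Ndufb2, an accessory subunit of complex I, was at 55.8 and 64.3 CPM in WT and 128 and 105 CPM in dKO (0.95 ± 0.21). Both were higher in each dKO library. Ndufv2, which carries an iron-sulphur cluster of the NADH-oxidising module, was at 372 and 435 CPM in WT and 225 and 185 CPM in dKO (−0.98 ± 0.18). Ndufa12 was at 142 and 134 CPM in WT and 77.2 and 78.2 CPM in dKO (−0.83 ± 0.17). Ndufa1 was at 182 and 235 CPM in WT and 118 and 97.4 CPM in dKO (−0.95 ± 0.21). These subunits of complex I were lower in each dKO library, while Ndufb2 of the same complex was higher. Complex I as a whole, with 37 members tested, had a median of 0.18, and complex IV, with 15, a median of 0.30. Cox7a2l, which rose in bulk RNA-seq, was at 126 and 123 CPM in Smart-seq2 WT and 190 and 162 CPM in dKO (0.50 ± 0.17, edgeR FDR = 0.165). Ndufa6 was at 124 and 131 CPM in WT and 128 and 112 CPM in dKO, with overlapping groups.

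**Figure D4:**
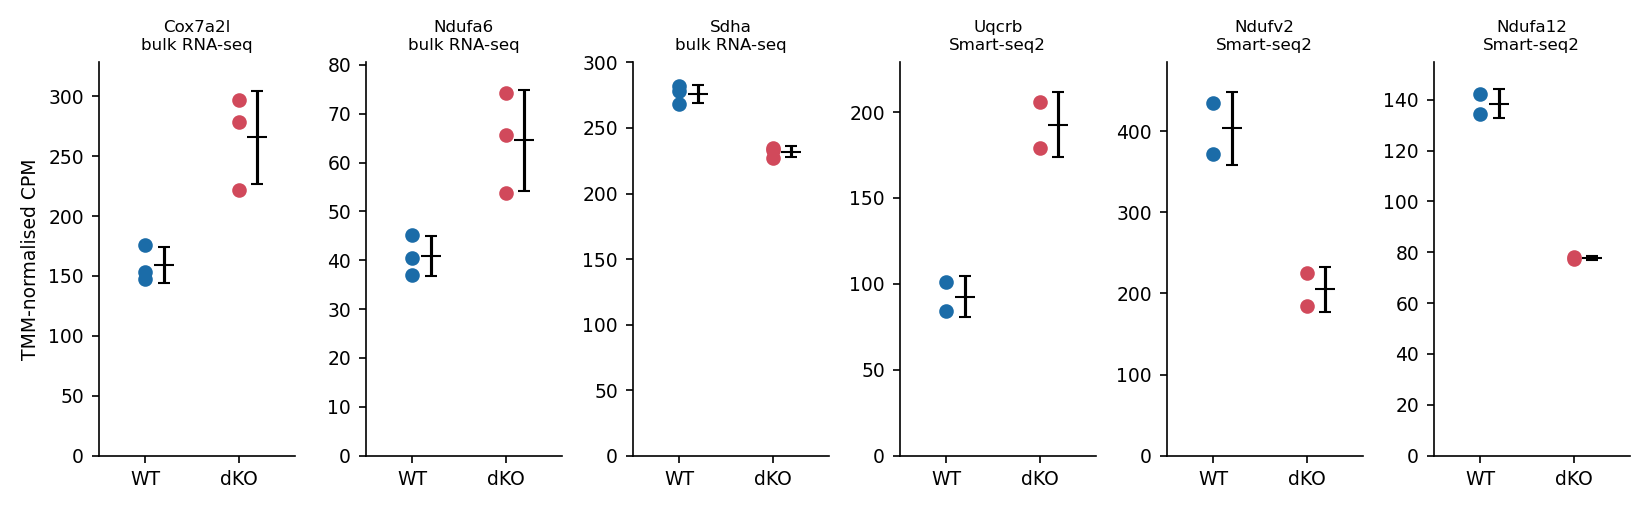
TMM-normalised CPM per library of 6 members, 3 in bulk RNA-seq and 3 in Smart-seq2, with black marks for mean ± SD and axes from 0. WT and dKO do not overlap in any panel, and only Cox7a2l and Ndufa6 had an edgeR FDR below 0.05.

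A fit over all 10 libraries tested whether the genotype effect differed between assays. It used a common spread per gene for both assays, although the coefficient of variation was 0.767 in Smart-seq2 and 0.155 in bulk. Its FDRs therefore lean on the smaller bulk spread, and Smart-seq2 alone called 0 of 16443 genes with edgeR. With edgeR's interaction term, 5 members had a higher log2 fold change in Smart-seq2 than in bulk at an FDR below 0.05 (14.7% of 19608 genes) and 1 a lower one (4.24%). The higher count was 2 with RLE (13.4% of all genes) and 3 with no filter on low counts (7.75%). It was 1 without bulk WT replicate 1 or 3 (10.4% and 10.5%) and 2 without bulk WT replicate 2 (10.5%). It was also 2 without bulk dKO replicate 1 or 3 (11.1% and 11.3%), and 5 without bulk dKO replicate 2 (12.7%). The lower count was 2 without bulk dKO replicate 1 or 2 (3.46% and 4.83%) and 1 without any other bulk library (2.80% to 3.84%). Leaving out 1 Smart-seq2 library leaves a lone library in a genotype, so numbers of calls are not given. The member median of the difference then ran from −0.078 to 0.17, against 0.044 in the full fit. Ndufv2 was the lower one in the full fit (−1.04 ± 0.23, edgeR FDR = 0.0141). Atp5g3, one of 3 genes for the membrane ring subunit of ATP synthase, was at 112 and 103 CPM in Smart-seq2 WT and 160 and 146 CPM in dKO. In bulk it was at 156, 144 and 164 CPM in WT and 121, 143 and 128 CPM in dKO. The genotypes did not overlap in either assay but stood in opposite order, and the difference was 0.84 ± 0.17 (edgeR FDR = 0.00938).

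Genes around the respiratory chain were read from fixed lists, against the 10.6% of all genes that were higher and the 8.51% that were lower in bulk RNA-seq. In bulk RNA-seq, 0 of 42 assembly factors outside the rule passed an edgeR FDR below 0.05, with 3 higher (18.2% of all genes) and 2 lower (15.7%) at an unadjusted p below 0.05. Of 9 cytochrome c and carrier genes, 0 rose and 2 fell, namely Cycs, the somatic cytochrome c (−0.84 ± 0.13, edgeR FDR = 0.00364), and Slc25a5, an ADP/ATP carrier (−0.45 ± 0.10, edgeR FDR = 0.0193). Of 17 glycolysis genes tested, 0 rose and 3 fell, and the median was −0.21. Pgk1 fell by 0.60 ± 0.11 (edgeR FDR = 0.00807). Among 23 regulators and mtDNA expression genes, 2 rose and 1 fell. The risers were Polg2 (0.77 ± 0.17), a subunit of the mtDNA polymerase, and Ssbp1 (0.43 ± 0.11). Of 13 TCA cycle genes, Idh3b rose (0.53 ± 0.12) and Ogdh fell (−0.59 ± 0.12). In Smart-seq2, edgeR called 0 of all 16443 genes, so none of these lists. The glycolysis median there was 0.60, against 0.15 over all genes and opposite in sign to bulk. Of its 17 genes, an unadjusted p below 0.05 was reached by 8 higher in dKO (16.4% of all genes) and 1 lower (7.35%). DESeq2 called 9 higher (18.8% of all genes) and 1 lower (10.7%).

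Chromatin at member promoters was read as summits within 3000 bp of a transcription start. A promoter was called marked when at least 2 replicate lists held one, and peaks had been called per sample. At P7, H3K4me3, a mark of active promoters, was present at 87 of 94 members (60.7% of all nuclear protein-coding genes) and H3K27ac at 63 (30.9%). Among the 13699 genes at 1 TPM or more in bulk WT, the shares were 88.8% and 47.5%. The 7 members without marked H3K4me3 were Cox7a1, Ndufa4l2, Cox8c, Cox4i2, Cox6a2, Cox8b and the Atp5o identifier listed at 0. Apart from the Atp5o identifier, each is one of an isoform or paralogue pair. Cox8c had no H3K4me3 or H3K27ac list at P7, and both lists of each mark at P14.

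At P7, H4R3me2a was present at 14 members (15.3% of all genes), H3R2me2a at 10 (10.9%), H3R8me2a at 7 (9.67%) and H4R3me1 at 11 (10.8%). The member shares were 14.9%, 10.6%, 7.45% and 11.7%, near those of all genes and below the 21.7%, 15.2%, 14.2% and 15.6% of expressed genes. H4R3me2s, the symmetric mark, was present at 29 members (17.7% of all genes and 26.5% of expressed genes). In total, 52 members had none of the 5 arginine marks, a state shared by 64.9% of all genes and 50.6% of expressed genes. Uqcrh, the hinge subunit of complex III, had all 5 in the lists as deposited. At q of at most 0.01, 0 members had H3R2me2a, H3R8me2a or H4R3me1 at P7, so Uqcrh did not keep all 5. The gene lies at chr4:116066965-116075071 on the minus strand. Its H4R3me2s summits in WT replicates 1 and 2 stood at 3.30-fold and 4.55-fold enrichment, 172 and 299 bp upstream of a start, and no dKO list had a summit there.

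At P14, more members were marked. H4R3me2a was present at 73 (49% of all genes), H3R2me2a at 60 (51.3%), H3R8me2a at 54 (33%), H4R3me1 at 48 (29.9%), H4R3me2s at 53 (34.2%), H3K27ac at 86 (48.9%) and H3K4me3 at 89 (63.1%). Among expressed genes the P14 shares were H4R3me2a 66.8%, H3R2me2a 69.4%, H3R8me2a 48.0%, H4R3me1 43.2% and H4R3me2s 49.9%. All 5 arginine marks were present at 33 members (16.6% of all genes and 25.3% of expressed genes). The 8 members with at least 3 arginine marks at P7 (Uqcrh, Atp5j, Ndufb5, Ndufv3, Atp5l, Ndufa4, Sdhd and Uqcrq) each had all 5 at P14. At least 3 marks at P7 were found at 8% of all genes, and 74.8% of those genes had all 5 at P14. At P14, no arginine mark was found at 12 members (36.3% of all genes and 16.4% of expressed genes), among them Cox7b2, Cox8b and Cox8c.

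Per list, H4R3me2a summits were found at 18, 18 and 24 members at P7 and at 63, 72 and 70 at P14 (exact two-sided permutation test, p = 0.1, the smallest possible, 0.389 adjusted over 7 marks). H3R2me2a was at 25 and 28 members at P7 and 70 and 74 at P14, H3R8me2a at 27 and 14 and then 67 and 66, and H4R3me1 at 36 and 22 and then 63 and 61, each without overlap. Over all genes the same lists also rose, with H4R3me2a summits at 19.0% to 20.3% and then 44.8% to 51.0% of genes. For H3R2me2a they stood at 24.3% and 24.1% and then 58.3% and 61.5%, for H3R8me2a at 21.02% and 21.49% and then 45.0% and 45.3%, and for H4R3me1 at 25.3% and 22.3% and then 40.9% and 42.7%. With 2 lists per age the smallest exact permutation p is 0.333. H4R3me2s did not separate, at 56 and 40 members at P7 and 60, 41 and 52 at P14 (exact permutation p = 0.7). The P14 lists were also longer, with 39597 to 44836 H4R3me2a peaks against 16995 to 18722 at P7. With lists cut to the shortest of each mark, 52 members had H4R3me2a at P14 (30.7% of all genes) and 14 at P7 (14.6%).

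H4R3me2s was also mapped in dKO at P7, where genotype cannot be told apart from the line of mice. Summits were found at 56 and 40 members in WT and at 32 and 19 in dKO, without overlap (exact two-sided permutation test, p = 0.333, the smallest possible). Over all genes the same lists held summits at 33.02% and 33.66% of promoters in WT and 27.43% and 23.02% in dKO, also without overlap. In both lists, 29 WT members and 8 dKO members (9.77% of all genes) were marked, 4 of them shared. A summit in both WT lists and no dKO list was found at 11 members (5.54% of all genes), including Uqcrh, Ndufv3, Cox5a and Atp5g3. By the rule of 2 lists, 25 members were marked in WT only and 4 in dKO only, against 2907 and 1159 of all nuclear protein-coding genes. With lists cut to equal length, 24 members were marked in WT (13.7% of all genes) and 6 in dKO (5.55%).

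**Figure D5:**
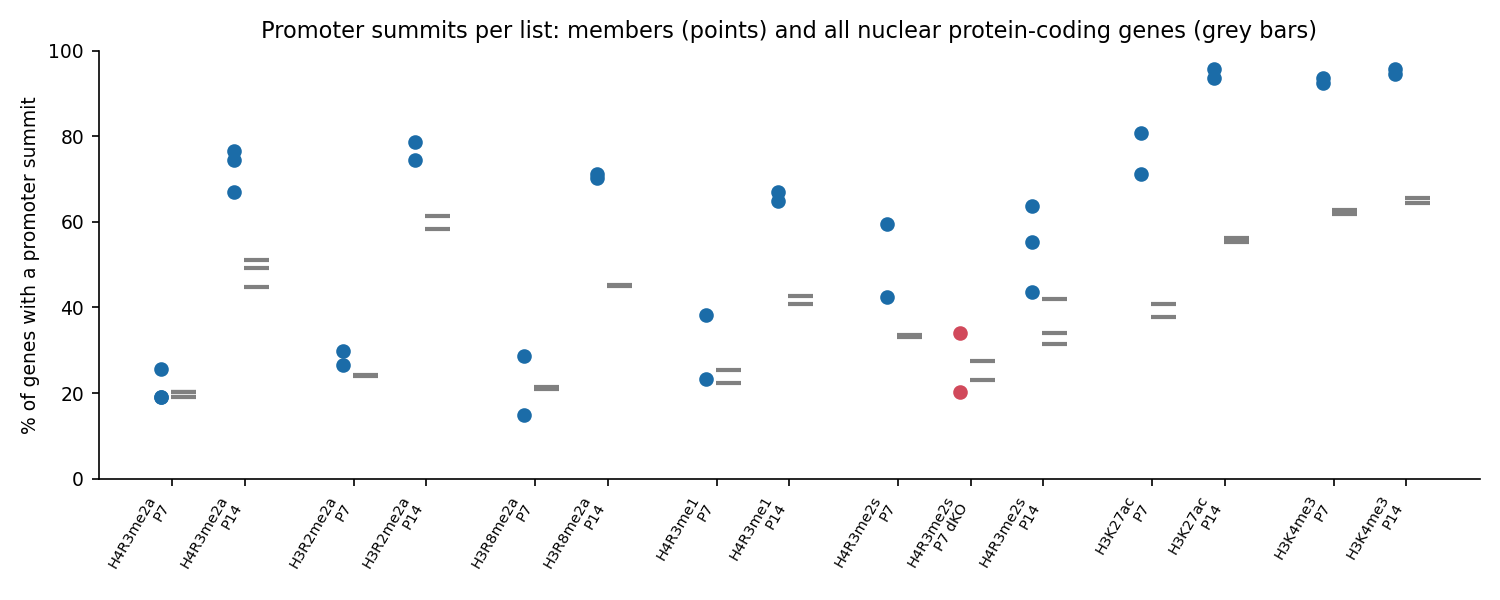
Percentage of the 94 members (points; red for dKO) and of all 21938 nuclear protein-coding genes (grey bars) with a promoter summit in each list, by mark and age. Members lie near all genes for H4R3me2a and H3R2me2a at P7 and above them in every P14 list.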

How the data were processed

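The 10 RNA libraries and 33 CUT&Tag lists were used. For RNA, the authors trimmed reads with fastp 0.23.2, aligned them to mm10 with STAR and deposited RSEM expected counts, TPM and FPKM (not used here) per gene, with lengths; for the RSEM version and annotation, the status is "not given in the sources used here". For CUT&Tag, the authors deposited MACS2 2.1.0 peaks per sample with signal as fold enrichment, −log10 p-values and −log10 q-values; peak names carry p 0.005, or q 0.05 for H3K4me3. Expected counts were rounded, filtered with filterByExpr, scaled by TMM and compared by genotype within each assay in R 4.3.3, using edgeR 4.0.16 (glmQLFit and glmQLFTest) with Benjamini-Hochberg adjustment over all genes and a script tested on simulated data. DESeq2 1.42.0 and limma 3.58.1 (voom) were alternatives. DESeq2 was run first with the same filter. It was run again without the filter after that result had been seen, partly because its count over all genes differed from an earlier analysis; both are reported. Summed shares and summits per list were compared with exact permutation tests. Gene models came from GENCODE vM21 (mm10, GRCm38) and promoters from RefSeq (GRCm38.p6), of which the one nearest the annotated gene start was printed. Members, lists and rules were chosen with earlier results of these data known. Named were members passing FDR below 0.05, the highest and lowest per complex, isoform sets, 9 core subunits, chrM genes and members with extreme promoter marking; other named members were chosen after their values were seen. Of 55401 gene identifiers in the tables, 55141 matched GENCODE without their version.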

Additional observations from a re-analysis of the deposited data

Results flagged for a closer look

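The genotype effect differed between Smart-seq2 and bulk RNA-seq by edgeR's interaction test for 6 members and 3 chrM genes; values are the log2 fold change of dKO over WT in Smart-seq2 minus that in bulk. The assays also differ in cells, protocol and control genotype, which cannot be told apart. The test used a common spread per gene for both assays, so its FDRs lean on the smaller bulk spread. The alternatives include fits that leave a lone Smart-seq2 library in a genotype. Atp5g3 differed by 0.84 and passed in 11 of 13 alternatives. Ndufv2 differed by −1.04 and passed in 12 of 13. Cox6a2 differed by 5.61 and passed in 13 of 13, but it was listed at 0 in both Smart-seq2 WT libraries, so this fitted value is no measure of size. Uqcrb differed by 1.0 and passed in 6 of 13, Sdhd by 0.82 in 4 of 13 and Sdha by 0.48 in 3 of 13. Of the chrM genes, mt-Nd5 differed by 1.15 and passed in 12 of 12 alternatives, mt-Nd6 by 1.05 in 4 of 12 and mt-Nd2 by 0.78 in 3 of 12. Each kept its sign in all alternatives.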

How the results depend on the processing

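Whether replicate numbers pair the samples is not known. As deviations from group means, same-numbered bulk libraries correlated at 0.083, −0.22 and −0.12 and the Smart-seq2 pair at 0.018. With so few libraries the group means constrain these correlations, so they cannot exclude pairing. With the number as a replicate block, bulk member calls at an FDR below 0.05 stayed at 2 higher and 0 lower and Smart-seq2 calls at 0, while mt-Nd5 in bulk lost its call (FDR = 0.0666). Summed differences are equal with and without the block by arithmetic, so the block is no check of them. Signs of summed differences turned in bulk for deposited TPM (members −0.00516, chrM −0.599) and in Smart-seq2 for the TMM denominator (members 0.0911). Leaving out 1 library moved the member share difference between 0.0127 and 0.166 in bulk and between −0.272 and −0.0195 in Smart-seq2, the bulk chrM share between −0.151 and 0.299 and the bulk log2 ratio between −0.13 and 0.29. The cause was not tested.

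Bulk calls at FDR alone were 5 higher without a filter on low counts (9.15% of all genes). DESeq2 called 3 higher (11.8% of all genes with the filter and 10.1% without) and 1 lower (10.5% and 7.54%). Leaving out 1 bulk library gave 1 to 8 higher and 0 to 6 lower. The extremes were 8 higher without dKO replicate 1 (8.70% against 9.47% of all genes) and 6 lower without dKO replicate 2 (6.52% against 15.2%). In Smart-seq2, DESeq2 gave 18 higher and 8 lower (3 and 2 at 2-fold), and DESeq2 without filterByExpr, added after the data had been seen, 7 and 5 (3 and 2). Leaving out 1 library gave 0 to 22 higher and 0 to 9 lower (0 to 5 and 0 to 3 at 2-fold), calls appearing only without WT replicate 1 or 2, where the lone library is assumed to vary like the others. Those settings called 34.149% and 27.015% of all genes higher and 17.1% and 16.1% lower, against 23.6% and 24.4%, and 10.1% and 7.78%, of members. At 2-fold, members were likewise called less often than all genes in each of those settings and in each direction. Over all genes the DESeq2 shares at 2-fold were 15.3% and 5.94%, and 7.02% and 3.79% unfiltered. The assay difference gave 2 higher with RLE (13.4% of all genes) and 3 without the filter (7.75%), and 1 to 10 higher (10.4% to 30.2%) and 0 to 4 lower (2.06% to 11.4%) leaving out 1 library. RLE moved its median over all genes from 0.22 to 0.095.

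Near-zero bulk values changed sign: Ndufb2 with voom (−0.022) and the block (−0.014), and Uqcrc1 with DESeq2 (−0.0022), DESeq2 unfiltered (−0.018), voom (−0.0145), no filter (−0.021), the block (−0.0145), RLE (−0.0022) and without chrM genes (−0.0060). In Smart-seq2, Uqcrc1 did with DESeq2 (−0.025), DESeq2 unfiltered (−0.029) and RLE (−0.025). Leaving out 1 bulk library gave −0.24 to 0.047 for Ndufa1, −0.27 to 0.22 for Ndufa12, −0.30 to 0.18 for Ndufb2, −0.15 to 0.0047 for Ndufs1, −0.090 to 0.20 for Sdhb, −0.022 to 0.26 for Uqcrb, −0.18 to 0.079 for Uqcrc1 and −0.11 to 0.063 for Uqcrfs1. In Smart-seq2 it gave −0.29 to 0.079 for Ndufv1 and −0.31 to 0.49 for Uqcrc1.

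Counting a summit in at least 1 list gave at P7 41 members with H4R3me2a (39.95% of all genes), 43 with H3R2me2a (37.5%), 34 with H3R8me2a (32.8%), 47 with H4R3me1 (36.7%) and, of H4R3me2s, 67 in WT (48.9%) and 43 in dKO (40.7%), and 76 for H4R3me1 at P14 (53.7%). At q of at most 0.01 these fell to 2, 0, 0, 0, 3 and 0 at P7 (0.857%, 0.460%, 1.03%, 0.748%, 1.53% and 0.223% of all genes), with 29 for H3K27ac (10.4%), and at P14 to 32 with H4R3me2a (19.4%), 22 with H3R8me2a (11.6%), 19 with H4R3me1 (10.02%) and 11 with H4R3me2s (6.50%). Within 1000 bp, 6 members had H3R2me2a (6.76%) and 7 H4R3me1 (6.65%) at P7. The H3K4me3 age difference was 0 at equal list length, and the H4R3me2s one ran from −5 to 11 leaving out 1 list.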
